A study of Mus musculus and Homo sapiens with 24 samples.

Results

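The genes that build the extracellular matrix were followed through 12 polyA RNA-seq libraries of K-562, a human chronic myeloid leukaemia line with erythroid features that grows in suspension. Members were taken by symbol alone, with no measured value used: protein-coding genes for collagen chains (COL followed by a type and chain number), laminin chains (LAMA, LAMB, LAMC), thrombospondins THBS2 to THBS4, fibulins (FBLN), fibrillins FBN2 and FBN3, tenascins TNC and TNR, and the single genes FN1, SPARC, HSPG2, AGRN, NID1 and NID2. This gave 73 genes of the 58721 human gene rows in the count tables, with 44 collagen chains, 12 laminin chains and 17 matrix glycoproteins or proteoglycans. The libraries fell into 4 groups of 3: wild-type (WT) K-562 with a control hairpin (WT shControl), WT with a hairpin against MBD6 (WT shMBD6), TET2 knockout K-562 with the control hairpin (KO shControl) and TET2 knockout with the MBD6 hairpin (KO shMBD6). TET2 is a dioxygenase that oxidises 5-methylcytosine, and MBD6 is a methyl-binding-domain protein of the complex that removes ubiquitin from histone H2A. The design asks what the lack of TET2 and the lowering of MBD6 each do to gene expression, and whether one depends on the other. Every group was 1 culture line made with 1 lentiviral hairpin and kept in puromycin, so genotype or hairpin and the history of that line cannot be told apart. The labels do not say that the 3 libraries of a group came from separate cultures, so p-values measure the spread between these libraries, which may be technical.

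As background, the matrix is a mesh of secreted proteins. Collagen chains wind into triple helices: types I, III and V form fibrils, type IV forms the network of basement membranes, type VI forms beaded filaments, types XV and XVIII carry glycan chains at basement membranes, and types XXIII and XXV span the membrane. Laminins are trimers of an alpha, a beta and a gamma chain that assemble the basement membrane together with nidogens, perlecan (HSPG2) and agrin (AGRN), while fibronectin (FN1) is the ligand that blood progenitors hold on to through integrins. In bone marrow most of this mesh is made by stromal cells and megakaryocytes, and erythroid precursors bind it.

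The line measurably transcribed 44 of the 73 genes, counting as detected those that passed edgeR's filter on low counts (a level of about 0.291 CPM, counts scaled to library size, in at least 3 libraries). These were 29 of 44 collagen chains, 7 of 12 laminin chains and 8 of 17 glycoproteins and proteoglycans. None of the 44 cleared the filter level in 1 group only, and 35 did so in all 4 groups. The 8 glycoproteins and proteoglycans were HSPG2, FN1, SPARC, AGRN, THBS3, TNC, FBLN2 and FBN3, and the 7 laminin chains were LAMA2, LAMA4, LAMA5, LAMB1, LAMB2, LAMB3 and LAMC1. The 29 genes that did not pass had 5 to 68 counts over all 12 libraries and at most 17 in any library. Among them were the cartilage chains COL2A1, COL10A1 and COL11A1, the epithelial anchoring chains COL17A1 and LAMA3, the nidogens NID1 and NID2, which bridge laminin to collagen IV, and the basement membrane chain COL4A1. The others included COL4A4, COL5A3, COL8A1, COL8A2, COL12A1, COL13A1, COL19A1, COL20A1, COL22A1, COL27A1, LAMA1, LAMB4, LAMC3, FBLN1, FBLN5, FBLN7, FBN2, THBS2, THBS4 and TNR. No member was at 0 in all libraries.

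The libraries held 27625013 to 39877202 counts in genes. MBD6 stood at 82.5 ± 5.60 CPM with WT shControl and 77.2 ± 4.59 with KO shControl, and fell with its hairpin to 38.0 ± 1.09 and 43.3 ± 0.800 CPM (each ± here and below is the SD, n = 3). The knockdown was weaker in KO, at -0.84 log2 units against -1.12 in WT (interaction 0.28, edgeR adjusted p = 0.0104). Its part in the interactions of matrix genes below was not tested. TET2 mRNA stood at 30.8 ± 2.63 CPM with WT shControl and 33.3 ± 0.688 CPM with KO shControl, so the knockout cannot be checked from these counts. Of fibroblast markers, LUM, FAP, POSTN and PDGFRA had 3 to 13 counts over all libraries. Of 10 endothelial markers, 7 stayed under 1 CPM in every group, CDH5 and CLDN5 among them at 0, but PECAM1, which is also found on blood cells, stood at 29, 10.9, 30.3 and 16.8 CPM with WT shControl, WT shMBD6, KO shControl and KO shMBD6, and ESAM at 6.46, 6.77, 0.783 and 1.40 CPM. The endothelial list summed to 33.6 to 37.0, 17.9 to 19.6, 31.0 to 33.0 and 19.1 to 20.7 CPM in that order. The summed level of the 12 fibroblast markers, of which all but TAGLN and COL1A2 stayed under 1 CPM in every group, was 3.91 to 4.2 CPM with WT shControl, 3.69 to 5.18 with WT shMBD6, 5.95 to 8.05 with KO shControl and 4.68 to 5.73 with KO shMBD6. The summed level of 12 erythroid markers moved with the groups. It was 2848 to 2956 CPM with WT shControl, 3553 to 3862 with WT shMBD6, 1652 to 1700.0 with KO shControl and 1566 to 1581 with KO shMBD6. HBG2 alone stood at 1499, 2252, 463 and 557.6 CPM in that order. From WT shControl to WT shMBD6 the mean rose for HBG1, HBG2, HBE1, HBZ and TAL1 and fell for the other markers. With KO shControl all markers but TFRC (457 against 309.4 CPM) stood below WT shControl. Megakaryocyte and platelet markers, with GP1BB at 0 and ITGA2B the highest, summed to 139.7 to 148 CPM, 93.1 to 93.7, 61.6 to 68.4 and 61.1 to 65.7 CPM in the same order. Of these 12 markers, 8 stayed under 1 CPM in every group, and THBS1 rose in that order (0.0116, 0.144, 0.509 and 2.02 CPM). Epithelial markers, with KRT8 the highest, summed to 1281 to 1288, 1451 to 1480, 994 to 1062 and 1261 to 1318 CPM. Macrophage and monocyte markers, with LYZ the highest, summed to 36.1 to 39.6, 50.0 to 52.4, 34.3 to 35.1 and 32.2 to 34.5 CPM. The part of these differences in the matrix results was not tested.

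To compare genes with each other, counts were divided by exon length and scaled to a common library total (TPM). Over all 12 libraries the highest levels per length were those of HSPG2 (67.0 TPM), FN1 (53.4), SPARC (42.4), COL6A3 (42.2), AGRN (41.5), COL15A1 (38.6), COL18A1 (31.6), LAMA5 (23.1), LAMB2 (18.9) and LAMB3 (12.1). The order differed between groups. With WT shControl, AGRN (44.3 ± 1.60 TPM) and HSPG2 (42.9 ± 1.13) led, and their difference was smaller than the SD of AGRN. They were followed by COL15A1 (39.9 ± 0.784) and COL6A3 (35.7 ± 0.660), with FN1 at 18.5 ± 0.216 TPM and SPARC at 15.1 ± 1.06 TPM further down. With KO shMBD6, SPARC led (85.4 ± 4.80 TPM), before HSPG2 (70.1 ± 3.72), FN1 (62.6 ± 2.30), COL6A3 (48.8 ± 0.919) and AGRN (36.8 ± 4.02). Some neighbours could not be ordered in that group beyond their spread, COL15A1 with COL18A1 (26.5 ± 1.36 and 25.7 ± 1.26 TPM) and LAMB3 with LAMB2 and LAMA5 (18.3 ± 1.24, 17.6 ± 1.47 and 17.4 ± 0.847 TPM). With the length of the canonical transcript instead, 9 of the 10 genes stayed among the 10 highest, LAMB1 took the place of LAMB3, and FN1 came first (62.2 TPM). Over the 12 libraries, perlecan, agrin, fibronectin, SPARC, the alpha 3 chain of collagen VI and the glycan-carrying collagens XV and XVIII were thus high among the members with either length. The fibril-forming chains COL1A1 and COL3A1 were lower, at 1.69 and 0.421 TPM by exon length. With WT shControl they stood at 0.397 ± 0.0734 and 0.406 ± 0.203 TPM, and COL1A1 reached 3.94 TPM with WT shMBD6. The levels were not set against genes outside the list.

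The partner chains of one trimer stood at very unequal levels per length. LAMC1, the gamma chain shared by most laminins, reached 0.792% of the LAMA5 level with WT shControl (SD 0.470), 2.2% (SD 0.531) with WT shMBD6, 1.47% (SD 0.578) with KO shControl and 7.15% (SD 0.432) with KO shMBD6, and no other gamma chain was detected. Among the beta chains, LAMB2 was at 58.1% to 100.5% of LAMA5 over the 4 groups and LAMB1 at 17.4% to 42.2%, but at 45.9% to 111% with the canonical transcript length, so the order of these beta chains depends on the length used. In collagen VI, COL6A1 reached 1.42% to 4.77% and COL6A2 9.82% to 34.5% of COL6A3. For collagen IV, COL4A1 had 0 counts in the 6 KO libraries, where a count of 0 allows up to 3, against 888 and 445 counts for COL4A2 in these groups. COL4A6 stood at 1.25% to 3.39% of COL4A5. In collagen I, COL1A2 was at 0.712% (SD 1.23) of COL1A1 with WT shControl and at 249% (SD 123) with KO shControl, so the chain in excess changed with the group.

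**Figure D1:**
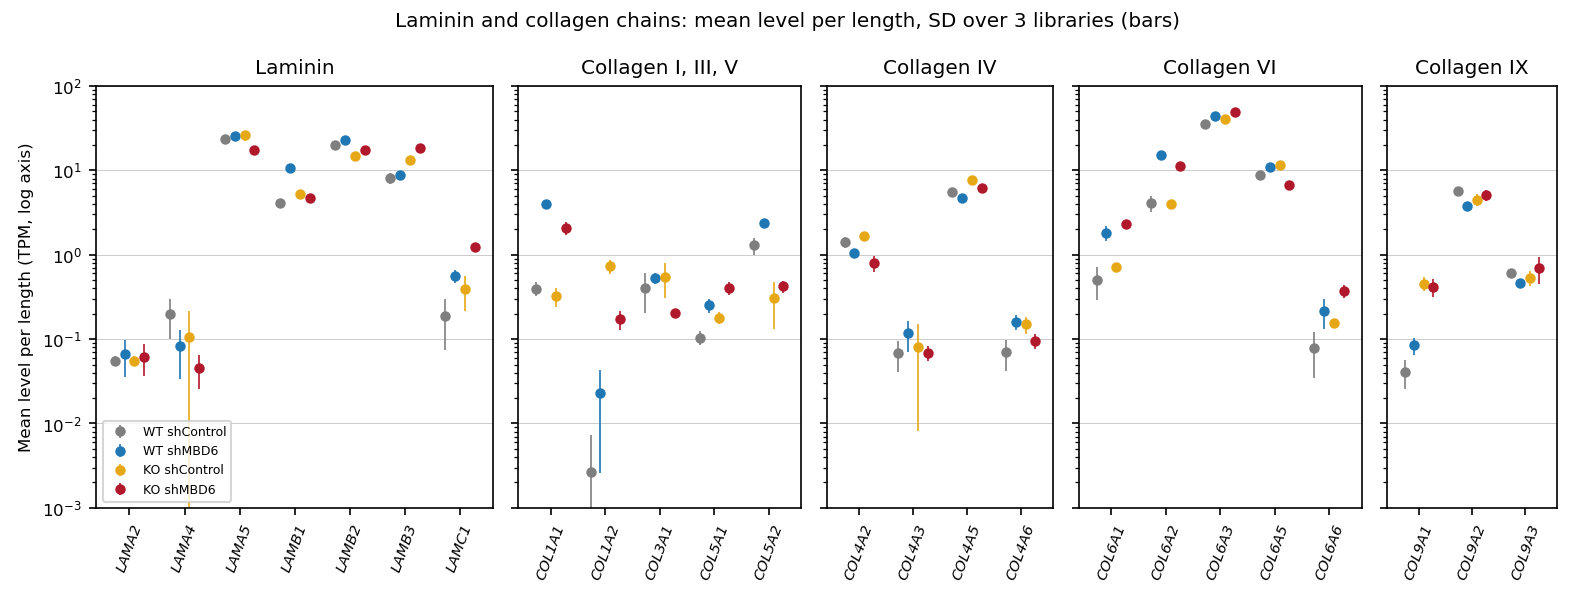
Mean level per length (TPM, log axis) of laminin chains and of collagen I, III, V, IV, VI and IX chains in the 4 groups, with the SD over 3 libraries as bars (bars that reach 0 run to the lower edge). LAMC1 lies below LAMA5 and COL6A1 and COL6A2 lie below COL6A3 in every group, and COL1A2 spans a wide range, from 0.00269 to 0.732 TPM.

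The share of detected matrix genes that were called lay above the share of all genes in each of 5 comparisons, which describes the list and is no test of it. A gene was called at an adjusted p under 0.05 over 17936 genes in edgeR's quasi-likelihood test. In TET2 KO against WT with shControl, 22 of the 44 were called (50%, against 42.8% of all genes), 15 higher and 7 lower. With shMBD6 the same genotype comparison called 27 (61.4% against 44.5%), 14 higher and 13 lower. shMBD6 against shControl called 23 in WT (52.3% against 39.6%), 17 higher and 6 lower, and 24 in TET2 KO (54.5% against 34.8%), 14 higher and 10 lower. A test of the difference between the shMBD6 effects in KO and WT, the interaction, called 15 (34.1% against 21.3%), 11 of them negative. A change of at least 2-fold was called for 12 members in KO against WT with shControl (27.3% against 10.4%), with 8 higher and 4 lower (18.2% and 9.09%, against 7.1% and 3.28%). With shMBD6 it was called for 12 as well (27.3% against 10%), 8 higher and 4 lower (18.2% and 9.09%, against 6.86% and 3.13%). For shMBD6 in WT it was called for 12 (27.3% against 6.28%), 11 of them higher (25% against 4.48%) and 1 lower (2.27% against 1.81%). In TET2 KO shMBD6 moved 14 by that much (31.8% against 5.75%), 10 higher and 4 lower (22.7% and 9.09%, against 4.09% and 1.66%). In the interaction 8 were that large (18.2% against 3.21%), 7 of them negative (15.9% against 1.87%) and 1 positive (2.27% against 1.34%). The median log2 fold change of the 29 collagen chains with shMBD6 in WT was 0.80, against -0.01 over all genes, while in TET2 KO it was 0.04 with 9 higher and 7 lower. Libraries of the groups compared did not overlap for 27, 30, 26 and 27 members in the 4 pairwise comparisons (61.4%, 68.2%, 59.1% and 61.4%), against 51.2%, 53%, 49.6% and 44.9% of all genes. The comparisons share groups and are not independent of each other.

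**Figure D2:**
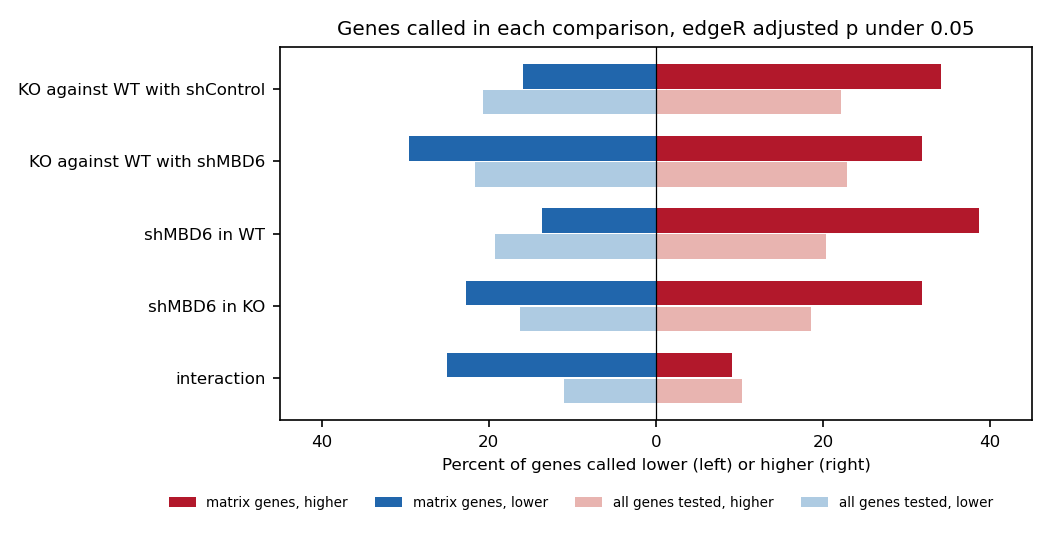
Percent of genes called lower (left of 0) or higher (right) in each comparison, for the 44 detected matrix genes (dark bars) and all 17936 genes tested (pale bars). For shMBD6 in WT, 38.6% of matrix genes against 20.4% of all genes were called higher, and for the interaction 25% against 11% were called negative.

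These directions are relative to the typical gene, because TMM scaling sets the median near 0. The study's methods, in contrast, put a factor from the ERCC reads into the size factors of its RNA-seq tests. ERCC spike-ins took 0.865 to 0.874% of the reads with WT shControl and 0.319 to 0.395% in the other 9 libraries, and scaling to them moved the median log2 fold change of all genes by 1.26 and 1.13 in the comparisons of KO shControl and WT shMBD6 with WT shControl, and the interaction by -0.95. Under that scaling the 5 comparisons called 39 members (38 higher, 1 lower), 30 (22 and 8), 39 (39 and 0), 27 (18 and 9) and 28 (1 and 27). Every statement below on the members' direction is relative to the median gene, and 14 called values turned under spike-in scaling: COL9A2, COL26A1, LAMB2, AGRN and COL25A1 in KO against WT with shControl, AGRN with shMBD6, COL9A2, COL21A1, COL4A2, THBS3 and COL4A5 for shMBD6 in WT, and COL9A2, SPARC and LAMB3 in the interaction. Another 7 calls were lost without a turn: FBLN2 in KO against WT with shControl, COL4A2, COL6A2, LAMB2 and COL25A1 with shMBD6, COL25A1 for shMBD6 in WT and COL4A5 for shMBD6 in KO.

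Fibronectin was higher with shMBD6 in WT, and higher in TET2 KO with no further change by shMBD6 called. FN1 (ENSG00000115414.18, hg38 chr2:215360440-215436073, minus strand) encodes the adhesive glycoprotein that integrins bind. Its libraries read 90.1, 92.7 and 91.7 CPM with WT shControl and 318, 314 and 312 with WT shMBD6. In TET2 KO, FN1 read 303, 322 and 312 CPM with shControl and 290.0, 293.5 and 315 with shMBD6. WT shControl stood below the other groups, which overlapped each other. The gene was 3.41-fold higher in TET2 KO with shControl (1.77 log2 units, SE 0.0362, adjusted p = 4.7e-19 in edgeR), and 3.44-fold higher with shMBD6 in WT (1.78 log2 units, SE 0.0362, adjusted p = 4.17e-18 in edgeR). In TET2 KO, shMBD6 left it at 299 ± 13.4 against 312 ± 9.47 CPM (log2 fold change -0.06, edgeR adjusted p = 0.183), and the 2 effects of the hairpin differed (by -1.84 log2 units, SE 0.0496, adjusted p = 1.08e-15 in edgeR).

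Perlecan and SPARC took other courses. HSPG2 (ENSG00000142798.19, hg38 chr1:21822244-21937310, minus strand), the large heparan sulfate proteoglycan of basement membranes, read 217, 230.0 and 222.5 CPM with WT shControl and 317, 334 and 314 with WT shMBD6. In TET2 KO, HSPG2 read 424, 440.1 and 481 CPM with shControl and 365, 358 and 335 with shMBD6. No 2 groups overlapped, with KO shControl the highest. It was 2.01-fold higher in TET2 KO with shControl (1.01 log2 units, SE 0.0433, adjusted p = 8.28e-14 in edgeR), rose with shMBD6 in WT (log2 fold change 0.53, edgeR adjusted p = 6.53e-09) and fell with it in TET2 KO (log2 fold change -0.35, edgeR adjusted p = 2.02e-06). The effects differed (by -0.87 log2 units, SE 0.0607, adjusted p = 3.25e-09 in edgeR). With shMBD6 the genotypes were close (log2 fold change 0.13, edgeR adjusted p = 0.0154), and HSPG2 lost this call without WT shMBD6 replicate 1 or 3 or KO shMBD6 replicate 1 or 2 (adjusted p 0.0548 to 0.0834). Of its exon bases, 11.7% overlap LDLRAD2 on the other strand, and the strand setting of the counting is not given in the sources used here.

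SPARC (ENSG00000113140.10, hg38 chr5:151661096-151686975, minus strand), a secreted collagen-binding glycoprotein, differed between all 4 groups. Its values were 21.6, 19.0 and 19.8 CPM with WT shControl and 32.1, 30.4 and 31.5 with WT shMBD6. In TET2 KO, SPARC read 55.5, 56.7 and 56.7 CPM with shControl and 109, 116 and 105 with shMBD6, and no groups overlapped. It was 2.80-fold higher in TET2 KO with shControl (1.49 log2 units, SE 0.0560, adjusted p = 9.57e-15 in edgeR) and 3.51-fold higher with shMBD6 (1.81 log2 units, SE 0.0527, adjusted p = 1.78e-16 in edgeR). It rose with shMBD6 1.56-fold in WT (edgeR adjusted p = 2.22e-08) and 1.95-fold in TET2 KO (edgeR adjusted p = 9.27e-12). The effect in KO was the larger (by 0.32 log2 units, SE 0.0765, adjusted p = 0.00418 in edgeR), although under spike-in scaling this difference is negative.

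The promoters of 3 highly transcribed genes, FN1, HSPG2 and COL18A1, are shown because all 3 rose with shMBD6 in WT and had a negative interaction. Each is the 200 bases before the canonical transcript start, read from hg38 on the gene's strand with coordinates from GENCODE release 44, with 3 promoter motifs in capitals. The first is the TATA box, searched as TATAAA. The second is the CCAAT box, searched as its name is spelled, and the last is the GC box, searched as GGGCGG. Each was searched on both strands, and overlapping GC boxes run together.
FN1: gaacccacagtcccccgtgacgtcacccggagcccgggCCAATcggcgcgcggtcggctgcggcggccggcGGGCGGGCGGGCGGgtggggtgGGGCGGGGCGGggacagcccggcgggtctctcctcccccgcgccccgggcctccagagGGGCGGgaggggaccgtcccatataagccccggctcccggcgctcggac
HSPG2: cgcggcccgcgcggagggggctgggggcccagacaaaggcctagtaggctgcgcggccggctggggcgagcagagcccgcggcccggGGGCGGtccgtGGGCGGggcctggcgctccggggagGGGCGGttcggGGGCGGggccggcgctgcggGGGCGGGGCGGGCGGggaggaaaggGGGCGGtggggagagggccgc
COL18A1: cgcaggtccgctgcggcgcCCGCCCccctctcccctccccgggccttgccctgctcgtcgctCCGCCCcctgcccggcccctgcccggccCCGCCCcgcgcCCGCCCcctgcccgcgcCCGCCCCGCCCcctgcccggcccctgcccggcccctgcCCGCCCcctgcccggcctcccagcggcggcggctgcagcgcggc
The windows lie at chr2:215436069-215436268, chr1:21937311-21937510 and chr21:45404965-45405164, and the first holds 5 bases of FN1 exon and 16 bases of an exon of FN1-DT. They hold 6, 8 and 7 GC boxes, at a base composition of 81.0%, 84.5% and 88.5% G or C. The FN1 window alone has a CCAAT box, and none of the 3 has the exact letters TATAAA. Near forms, such as the catataag in the FN1 window, were not searched. Such windows are not shared by all genes of this course. LAMB1 also rose with shMBD6 in WT with a negative interaction, and its window holds 2 GC boxes at 66.0% G or C. The windows of SPARC and COL6A3, abundant genes that rose with shMBD6 in both genotypes, hold no GC box at 58.5% G or C. The windows of LAMB1, SPARC and COL6A3 hold 52, 60 and 93 bases of the gene's own exons. All 200 bases of the SPARC window also lie in an exon of CLMAT3. Among 20033 windows of the same length before protein-coding genes, 56.3% hold a GC box, 30.4% a CCAAT box and 7.82% a TATA box, and the median GC content is 64.5%. A match is a description of the letters and not a site of binding.

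The remaining glycoproteins changed less or were rare. AGRN, agrin, a heparan sulfate proteoglycan that clusters receptors, read 131, 142 and 137 CPM with WT shControl and 132, 138 and 136 with WT shMBD6. In TET2 KO, AGRN read 112, 114 and 123 CPM with shControl and 109, 98.2 and 123 with shMBD6. It was lower in TET2 KO with either hairpin (log2 fold change -0.24, edgeR adjusted p = 0.00241, and -0.30, edgeR adjusted p = 0.000278), and its shMBD6 groups overlapped the controls. THBS3, a thrombospondin, stood at 10.8 ± 0.792 CPM with WT shControl and fell to 7.82 ± 0.634 CPM under shMBD6 (edgeR adjusted p = 0.00125) and from 12.5 ± 0.472 to 8.81 ± 1.19 in TET2 KO (edgeR adjusted p = 0.000729). Its exons share 29.1% of their bases with MTX1 and THBS3-AS1 on the other strand. Of the rare genes, TNC, tenascin C, stood at 0.556 ± 0.237 CPM with WT shMBD6 and 1.30 ± 0.311 with KO shMBD6 (1.22 log2 units, SE 0.321, adjusted p = 0.00394 in edgeR). Its libraries held 19, 30 and 22 counts with WT shControl and 17, 30 and 12 with WT shMBD6, and 45, 33 and 32 with KO shControl and 61, 40 and 37 with KO shMBD6. FBLN2, a fibulin of elastic fibres, had 4, 9 and 10 counts with WT shControl, 6, 15 and 7 with WT shMBD6, 4, 1 and 1 with KO shControl and 10, 23 and 12 with KO shMBD6, lowest in the KO shControl libraries. It rose with shMBD6 in TET2 KO (2.79 log2 units, SE 0.710, adjusted p = 0.00407 in edgeR) and was lower in KO with shControl (-1.95 log2 units, SE 0.766, adjusted p = 0.0462 in edgeR). FBLN2 lost the second call without WT shControl replicate 2 or 3, WT shMBD6 replicate 1 or 3 or KO shControl replicate 2 or 3 (adjusted p 0.0521 to 0.154). FBN3, a fibrillin, was called in none of the 5 comparisons.

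**Figure D3:**
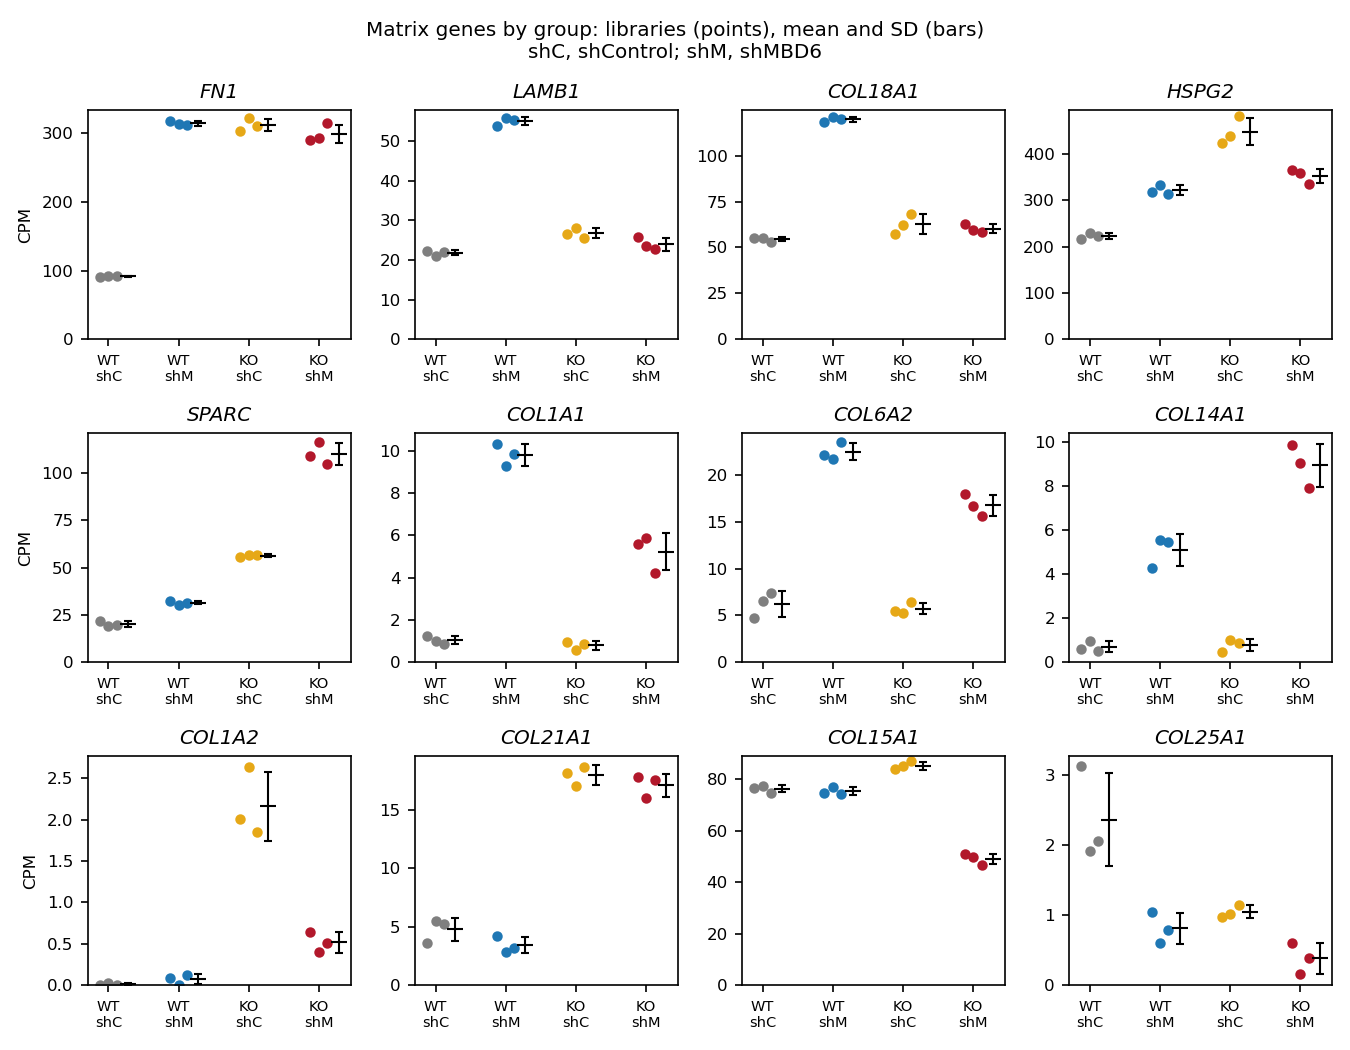
CPM of 12 matrix genes in the 4 groups, each library as a point and the mean with its SD beside it, every axis starting at 0. FN1 is low in WT shControl alone, LAMB1 and COL18A1 are high in WT shMBD6 alone, COL1A1, COL6A2 and COL14A1 are high with shMBD6 in both genotypes, and COL21A1 is high in TET2 KO with either hairpin.

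Laminin chains did not move as a set. Of the 7 detected, shMBD6 raised 2 in WT (LAMB1, LAMC1) and lowered none, and in TET2 KO it raised LAMB2, LAMB3 and LAMC1 and lowered LAMA5. LAMB1 (ENSG00000091136.13, hg38 chr7:107923799-108003213, minus strand), the beta 1 chain, read 22.3, 21.1 and 22 CPM with WT shControl and 53.9, 55.9 and 55.2 with WT shMBD6. In TET2 KO, LAMB1 read 26.4, 28.1 and 25.6 CPM with shControl and 25.8, 23.4 and 22.7 with shMBD6. The WT shMBD6 libraries stood above all others, 2.53-fold over WT shControl (1.34 log2 units, SE 0.0622, adjusted p = 2.05e-12 in edgeR), whereas in TET2 KO the hairpin groups stood at 26.7 ± 1.27 and 24.0 ± 1.62 CPM (edgeR adjusted p = 0.0597). The effects differed (by -1.49 log2 units, SE 0.0883, adjusted p = 2.66e-10 in edgeR). LAMA5 (ENSG00000130702.15, hg38 chr20:62307955-62367312, minus strand), the alpha chain with the highest level per length here, read 97.4, 96.5 and 94.4 CPM with WT shControl and 98.4, 108 and 94.8 with WT shMBD6. In TET2 KO, LAMA5 read 90.9, 98.0 and 114.5 CPM with shControl and 72.5, 66.9 and 68.5 with shMBD6. The KO shMBD6 libraries lay below the rest (-0.54 log2 units, SE 0.0644, adjusted p = 1.22e-06 in edgeR against KO shControl). The shMBD6 effect was smaller and not called in WT (log2 fold change 0.07, edgeR adjusted p = 0.457), and the difference between them was called (by -0.61 log2 units, SE 0.0905, adjusted p = 5.33e-05 in edgeR).

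LAMB2, the beta 2 chain, read 38.3, 39.3 and 41.9 CPM with WT shControl and 41.7, 43.3 and 44.9 with WT shMBD6. In TET2 KO, LAMB2 read 26.6, 28.2 and 29.3 CPM with shControl and 36.2, 33.0 and 31.3 with shMBD6. It was lower in TET2 KO than in WT with either hairpin (edgeR adjusted p = 1.41e-06 and 5.52e-05). LAMB3, the beta 3 chain of epithelial laminin, went the other way. It read 12, 11.3 and 8.91 CPM with WT shControl and 11.8, 10.2 and 12.1 with WT shMBD6. In TET2 KO, LAMB3 read 16.9, 16.1 and 16.9 CPM with shControl and 24.9, 22 and 24.1 with shMBD6. Both KO groups lay above both WT groups (1.05 log2 units, SE 0.0971, adjusted p = 1.56e-08 in edgeR for the comparison with shMBD6). Its interaction (0.43, edgeR adjusted p = 0.0324) was lost in 7 of 12 fits, LAMB3 losing it without WT shControl replicate 1 or 2, WT shMBD6 replicate 2, KO shControl replicate 1, 2 or 3 or KO shMBD6 replicate 1 (adjusted p 0.0513 to 0.109). LAMC1 (ENSG00000135862.5, hg38 chr1:183023420-183145592, plus strand) rose with shMBD6 from 0.452 ± 0.271 to 1.29 ± 0.233 CPM in WT (1.48 log2 units, SE 0.380, adjusted p = 0.00386 in edgeR) and from 0.892 ± 0.39 to 2.92 ± 0.0874 in TET2 KO (1.71 log2 units, SE 0.326, adjusted p = 0.000329 in edgeR). LAMC1 libraries read 0.616, 0.602 and 0.139 CPM with WT shControl and 1.37, 1.03 and 1.48 with WT shMBD6. In TET2 KO, LAMC1 read 0.442, 1.12 and 1.11 CPM with shControl and 2.91, 3.02 and 2.84 with shMBD6, the last group lying above all others. LAMA2 and LAMA4, alpha chains of muscle and vessel basement membrane, were called in no comparison, at 0.421 ± 0.0586 and 0.688 ± 0.343 CPM with WT shControl.

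Among basement membrane collagens, the glycan-carrying types XV and XVIII differed in course. COL18A1 (ENSG00000182871.14, hg38 chr21:45405165-45513720, plus strand), whose end fragment is endostatin, read 55.2, 55.1 and 53.2 CPM with WT shControl and 118.5, 121 and 120.1 with WT shMBD6. In TET2 KO, COL18A1 read 57.4, 62.4 and 68.2 CPM with shControl and 63.0, 59.6 and 58.4 with shMBD6. WT shMBD6 stood above the other groups, 2.2-fold over WT shControl (1.14 log2 units, SE 0.0516, adjusted p = 1.3e-12 in edgeR), and the effect in TET2 KO was not called (log2 fold change -0.05, edgeR adjusted p = 0.468). The effects differed (by -1.19 log2 units, SE 0.0731, adjusted p = 4.8e-10 in edgeR). COL18A1 exons share 18.5% of their bases with SLC19A1 on the other strand. COL15A1 (ENSG00000204291.10, hg38 chr9:98943179-99070792, plus strand) read 76.6, 77.4 and 74.7 CPM with WT shControl and 74.7, 77 and 74.2 with WT shMBD6. In TET2 KO, COL15A1 read 83.8, 85.0 and 86.9 CPM with shControl and 50.7, 49.6 and 46.6 with shMBD6. KO shMBD6 lay below the rest (-0.80 log2 units, SE 0.0424, adjusted p = 1.07e-11 in edgeR against KO shControl), and KO shControl lay above every WT library (0.16 log2 units, SE 0.0416, adjusted p = 0.00357 in edgeR against WT shControl). With shMBD6, COL15A1 was lower in KO than in WT (log2 fold change -0.62, edgeR adjusted p = 1.65e-10), and the shMBD6 effect in WT was not called (log2 fold change -0.02, edgeR adjusted p = 0.762). The shMBD6 effects in the 2 genotypes differed (by -0.78 log2 units, SE 0.0595, adjusted p = 1.29e-08 in edgeR).

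Collagen IV was represented by COL4A2 and COL4A5. COL4A2 (ENSG00000134871.18, hg38 chr13:110305812-110513209, plus strand) read 9.10, 7.30 and 6.89 CPM with WT shControl and 5.39, 5.59 and 5.60 with WT shMBD6. In TET2 KO, COL4A2 read 8.51, 8.33 and 9.62 CPM with shControl and 3.74, 5.26 and 3.76 with shMBD6. It fell with shMBD6 in TET2 KO (-1.05 log2 units, SE 0.138, adjusted p = 4.44e-06 in edgeR) and in WT (-0.49 log2 units, SE 0.136, adjusted p = 0.00704 in edgeR), the latter lost without WT shControl replicate 1 (adjusted p 0.0566). With shMBD6 it was lower in KO than in WT (edgeR adjusted p = 0.034), a call that COL4A2 lost without WT shMBD6 replicate 1, 2 or 3 or KO shMBD6 replicate 1 or 3 (adjusted p 0.0559 to 0.134), and its interaction (-0.57, edgeR adjusted p = 0.0409) was lost without WT shControl replicate 2 or 3, WT shMBD6 replicate 1, 2 or 3, KO shControl replicate 1 or 3 or KO shMBD6 replicate 1 or 3 (adjusted p 0.0508 to 0.0982). COL4A5, the X-linked chain of kidney basement membrane, fell with shMBD6 from 18.9 ± 0.633 to 15.4 ± 0.805 CPM in WT (edgeR adjusted p = 0.00552) and from 25.1 ± 0.939 to 20.6 ± 1.96 in TET2 KO (edgeR adjusted p = 0.00583), and was higher in KO with either hairpin (edgeR adjusted p = 0.000178 and 0.00017). COL4A3 and COL4A6 were called in no comparison.

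COL4A1 and COL4A2 start back to back, and the bases between their canonical starts are shown because one gene was transcribed and the other was not detected. The gap at chr13:110307158-110307283 (hg38, plus strand, COL4A2 to the right, 126 bases, 26 of them in a COL4A2 exon) reads as follows, with capitals as above.
COL4A1-COL4A2 gap: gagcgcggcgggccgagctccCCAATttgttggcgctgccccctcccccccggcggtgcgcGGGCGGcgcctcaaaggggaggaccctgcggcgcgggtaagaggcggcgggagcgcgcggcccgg
It holds 1 GC box and 1 CCAAT box, and 80.2% of its bases are G or C. The first of the motifs was not matched there. COL4A1 had 9 counts in all, 4 with WT shControl and 5 with WT shMBD6, against 740 and 580 for COL4A2 in the same groups.

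The collagen I chains were rare, and COL1A1 rose with shMBD6 while COL1A2 was higher in TET2 KO. COL1A1 (ENSG00000108821.13, hg38 chr17:50184101-50201632, minus strand), the major chain of collagen I, read 1.23, 0.978 and 0.870 CPM with WT shControl and 10.3, 9.28 and 9.83 with WT shMBD6. In TET2 KO, COL1A1 read 0.942, 0.561 and 0.860 CPM with shControl and 5.60, 5.85 and 4.21 with shMBD6. Both shMBD6 groups stood above both controls. The rise was 9.58-fold in WT (3.26 log2 units, SE 0.181, adjusted p = 2.34e-11 in edgeR) and 6.63-fold in TET2 KO (2.73 log2 units, SE 0.193, adjusted p = 7.65e-10 in edgeR), and the difference between them was not called (edgeR adjusted p = 0.199). Its partner COL1A2 (ENSG00000164692.17, hg38 chr7:94394895-94431227, plus strand) was counted 0, 1 and 0 times in the WT shControl libraries, 3, 0 and 4 with WT shMBD6, 68, 94 and 58 with KO shControl and 24, 13 and 18 with KO shMBD6. TET2 KO libraries stood above all WT libraries, and KO shControl above KO shMBD6. Scaled for depth, KO shControl over WT shControl was 209.5 (220 counts against 1, exact 95% interval 37.2 to 8311, counting error only), and with shMBD6 the ratio was 7.82 (55 against 7, 3.55 to 20.3). shMBD6 lowered COL1A2 in TET2 KO (-2.05 log2 units, SE 0.380, adjusted p = 0.000241 in edgeR). Its interaction (-4.39, edgeR adjusted p = 0.013) rests on a WT shControl group with 1 count, and COL1A2 lost it without WT shMBD6 replicate 3 (adjusted p 0.0865). COL1A2 is itself one of the 12 fibroblast markers, and of the others TAGLN was the only one over 1 CPM in any group.

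COL5A1 and COL5A2, which regulate fibril width, did not share a pattern. COL5A1 rose with shMBD6 from 0.334 ± 0.0606 to 0.776 ± 0.157 CPM in WT (edgeR adjusted p = 0.00865) and from 0.548 ± 0.0860 to 1.26 ± 0.212 in TET2 KO (edgeR adjusted p = 0.00445). COL5A1 libraries held 11, 13 and 8 counts with WT shControl and 32, 24 and 25 with WT shMBD6, and 20, 16 and 19 with KO shControl and 56, 38 and 40 with KO shMBD6, with both shMBD6 groups above their controls. COL5A2 (ENSG00000204262.12, hg38 chr2:189031898-189225312, minus strand) read 3.04, 3.06 and 2.02 CPM with WT shControl and 4.08, 5.08 and 5.07 with WT shMBD6. In TET2 KO, COL5A2 read 0.353, 1.01 and 0.478 CPM with shControl and 0.808, 0.739 and 1.03 with shMBD6. Every WT library was above every KO library, 4.36-fold lower in KO with shControl (-2.13 log2 units, SE 0.286, adjusted p = 3.31e-06 in edgeR) and 5.49-fold lower with shMBD6 (-2.46 log2 units, SE 0.262, adjusted p = 1.35e-07 in edgeR). It rose with shMBD6 in WT (0.80 log2 units, SE 0.232, adjusted p = 0.00887 in edgeR), a call COL5A2 lost without WT shControl replicate 3 (adjusted p 0.0588). The libraries of COL3A1, the chain of type III fibrils, held 10, 34 and 33 counts with WT shControl and 33, 31 and 39 with WT shMBD6, and 51, 22 and 29 with KO shControl and 12, 13 and 15 with KO shMBD6. COL3A1 was lower with KO shMBD6 (0.380 ± 0.0506 CPM) than with KO shControl (1.01 ± 0.449 CPM, -1.41 log2 units, SE 0.411, adjusted p = 0.0108 in edgeR) or WT shMBD6 (0.985 ± 0.145 CPM, edgeR adjusted p = 0.00998). COL3A1 lost the first call without KO shControl replicate 1 (adjusted p 0.0945) and its interaction (-1.72, edgeR adjusted p = 0.0327) without WT shControl replicate 1 or 2, WT shMBD6 replicate 1 or 3, KO shControl replicate 1 or KO shMBD6 replicate 1 (adjusted p 0.0512 to 0.12). COL24A1 rose with shMBD6 in TET2 KO from 0.347 ± 0.199 to 0.871 ± 0.385 CPM (1.31 log2 units, SE 0.468, adjusted p = 0.0343 in edgeR), which COL24A1 lost without KO shControl replicate 1 or KO shMBD6 replicate 2 (adjusted p 0.165 to 0.206). Its libraries held 14, 13 and 9 counts with WT shControl and 12, 20 and 13 with WT shMBD6, and 4, 17 and 14 with KO shControl and 20, 42 and 28 with KO shMBD6. COL11A2, another fibril chain, was called in no comparison.

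Collagen VI had 5 detected chains, all of which rose with shMBD6 in WT. COL6A1, COL6A2, COL6A3 and COL6A6 rose in both genotypes, and COL6A5 rose in WT and fell in TET2 KO. COL6A2 (ENSG00000142173.14, hg38 chr21:46098112-46132848, plus strand) read 4.75, 6.55 and 7.44 CPM with WT shControl and 22.2, 21.8 and 23.6 with WT shMBD6. In TET2 KO, COL6A2 read 5.45, 5.30 and 6.46 CPM with shControl and 18, 16.7 and 15.7 with shMBD6. Both shMBD6 groups lay above both controls, by 3.59-fold in WT (1.84 log2 units, SE 0.118, adjusted p = 1.94e-10 in edgeR) and 2.93-fold in KO (1.55 log2 units, SE 0.12, adjusted p = 2.99e-09 in edgeR). COL6A1 (ENSG00000142156.14, hg38 chr21:45981770-46005050, plus strand) read 0.688, 0.527 and 1.18 CPM with WT shControl and 3.36, 2.25 and 2.78 with WT shMBD6. In TET2 KO, COL6A1 read 1.12, 0.981 and 1.15 CPM with shControl and 3.66, 3.79 and 3.29 with shMBD6. The division was the same (1.83 log2 units, SE 0.250, adjusted p = 5.86e-06 in edgeR in WT and log2 fold change 1.72, edgeR adjusted p = 6.8e-06, in KO). The abundant COL6A3 (ENSG00000163359.15, hg38 chr2:237324003-237414328, minus strand) read 219.9, 225 and 217 CPM with WT shControl and 259, 266 and 265.5 with WT shMBD6. In TET2 KO, COL6A3 read 230.2, 237 and 239 CPM with shControl and 292, 286 and 298.5 with shMBD6. It rose in WT (0.26 log2 units, SE 0.0306, adjusted p = 1.07e-06 in edgeR) and in KO (log2 fold change 0.31, edgeR adjusted p = 1.03e-07). Its genotype call with shControl (0.10, edgeR adjusted p = 0.0153) was one COL6A3 lost without WT shControl replicate 3 or KO shControl replicate 2 (adjusted p 0.0636 to 0.103).

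COL6A5 and COL6A6, the longer alternative chains, are neighbours on chromosome 3 (hg38 chr3:130345516-130484846 and chr3:130517177-130677044, both on the plus strand). COL6A5 read 24.4, 23.8 and 23.9 CPM with WT shControl and 28.7, 28.7 and 29.8 with WT shMBD6. In TET2 KO, COL6A5 read 30.9, 29.2 and 31.5 CPM with shControl and 19.6, 17.4 and 16.9 with shMBD6. It rose with shMBD6 in WT (0.27 log2 units, SE 0.0662, adjusted p = 0.00238 in edgeR) and fell with it in TET2 KO (-0.76 log2 units, SE 0.0670, adjusted p = 1.98e-08 in edgeR), and the effects differed (by -1.04 log2 units, SE 0.0942, adjusted p = 1.33e-07 in edgeR). COL6A6 libraries held 2, 11 and 7 counts with WT shControl and 10, 22 and 24 with WT shMBD6, and 13, 15 and 10 with KO shControl and 40, 30 and 27 with KO shMBD6. The gene stood at 0.197 ± 0.109 and 0.530 ± 0.207 CPM with shControl and shMBD6 in WT (edgeR adjusted p = 0.0284) and at 0.374 ± 0.0516 and 0.918 ± 0.162 in TET2 KO (edgeR adjusted p = 0.0214). COL6A6 lost the call in WT without WT shControl replicate 1 or WT shMBD6 replicate 2 or 3 (adjusted p 0.0797 to 0.117) and that in KO without KO shControl replicate 1 or 3 or KO shMBD6 replicate 1 or 2 (adjusted p 0.0521 to 0.0879).

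The promoter of COL6A2 is shown because this gene rose with shMBD6 in both genotypes, unlike COL18A1 on the same chromosome, with the same window, build and capitals as above.
COL6A2: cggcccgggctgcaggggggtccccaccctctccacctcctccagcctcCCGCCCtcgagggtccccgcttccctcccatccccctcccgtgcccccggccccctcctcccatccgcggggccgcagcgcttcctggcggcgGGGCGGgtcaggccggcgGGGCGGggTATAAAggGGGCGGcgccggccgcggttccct
It lies at chr21:46097912-46098111 on the plus strand. It holds 4 GC boxes, and 80.0% of its bases are G or C. It also holds 1 TATA box, which 7.82% of all windows do. The TATA box did not go with this course in every gene. COL6A1, on the same chromosome and also raised in both genotypes, has 12 GC boxes in its window and no TATA box. Of other genes raised in both, the COL1A1 window holds 1 TATA box, and those of COL6A3, LAMC1 and SPARC hold none. The shMBD6 effect on COL18A1 was not called in TET2 KO.

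Collagens that coat fibrils followed separate courses. COL14A1 (ENSG00000187955.11), a fibril-associated chain, read 0.580, 0.978 and 0.522 CPM with WT shControl and 4.26, 5.54 and 5.45 with WT shMBD6. In TET2 KO, COL14A1 read 0.471, 1.01 and 0.860 CPM with shControl and 9.88, 9.02 and 7.92 with shMBD6. It rose 7.05-fold with shMBD6 in WT (2.82 log2 units, SE 0.231, adjusted p = 6.54e-09 in edgeR) and 11.4-fold in TET2 KO (3.51 log2 units, SE 0.220, adjusted p = 1.29e-10 in edgeR). COL21A1 (ENSG00000124749.16, hg38 chr6:56056590-56394094, minus strand), of the same class, read 3.62, 5.49 and 5.22 CPM with WT shControl and 4.2, 2.85 and 3.22 with WT shMBD6. In TET2 KO, COL21A1 read 18.2, 17 and 18.7 CPM with shControl and 17.8, 16.0 and 17.6 with shMBD6. It divided by genotype, 3.72-fold higher in TET2 KO with shControl (1.90 log2 units, SE 0.132, adjusted p = 1.9e-10 in edgeR) and 5.02-fold higher with shMBD6 (2.33 log2 units, SE 0.136, adjusted p = 1.27e-11 in edgeR). Its fall with shMBD6 in WT (-0.50, edgeR adjusted p = 0.0114) was between overlapping groups, and COL21A1 lost it without WT shControl replicate 2 or 3 or WT shMBD6 replicate 2 (adjusted p 0.0505 to 0.0973). In collagen IX, which binds cartilage fibrils, COL9A1 was higher in KO with shControl (1.28 ± 0.252 against 0.122 ± 0.0452 CPM, 3.33 log2 units, SE 0.415, adjusted p = 1.17e-06 in edgeR) and with shMBD6 (1.18 ± 0.267 against 0.240 ± 0.0542 CPM, edgeR adjusted p = 3.05e-05). COL9A1 had 4, 6 and 2 counts with WT shControl and 10, 7 and 8 with WT shMBD6, and 49, 50 and 31 with KO shControl and 54, 38 and 33 with KO shMBD6, so every KO library lay above every WT library. COL9A2 went from 6.89 ± 0.381 to 4.39 ± 0.0917 CPM with shMBD6 in WT (edgeR adjusted p = 0.000514) and stood at 5.16 ± 0.774 and 6.01 ± 0.838 in KO (edgeR adjusted p = 0.211), with an interaction of 0.87 (edgeR adjusted p = 0.00185). COL9A2 lost its lower level in KO with shControl (edgeR adjusted p = 0.0132) without WT shControl replicate 2 or KO shControl replicate 1 (adjusted p 0.0586 to 0.0832) and its higher level with shMBD6 (edgeR adjusted p = 0.00854) without KO shMBD6 replicate 1 (adjusted p 0.0712). COL9A3 and COL16A1 were called in no comparison, nor was COL7A1, the anchoring fibril chain.

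The membrane-spanning collagens moved in opposite directions with shMBD6 in WT. COL23A1 (ENSG00000050767.16, hg38 chr5:178237476-178590393, minus strand) had 1, 2 and 4 counts with WT shControl, 31, 10 and 30 with WT shMBD6, 34, 59 and 50 with KO shControl and 104, 75 and 68 with KO shMBD6. WT shControl stood below all other groups (4.21 log2 units, SE 0.526, adjusted p = 1.2e-06 in edgeR for KO with shControl, and log2 fold change 3.16, edgeR adjusted p = 0.00016, for shMBD6 in WT). The shMBD6 effect in TET2 KO was not called (0.72, edgeR adjusted p = 0.0902), and its interaction (-2.44, edgeR adjusted p = 0.0135) was one COL23A1 lost without WT shControl replicate 2 (adjusted p 0.0613). COL25A1 (ENSG00000188517.15, hg38 chr4:108808725-109302752, minus strand), found in amyloid plaques, read 3.12, 1.91 and 2.05 CPM with WT shControl and 1.04, 0.597 and 0.783 with WT shMBD6. In TET2 KO, COL25A1 read 0.972, 1.01 and 1.15 CPM with shControl and 0.592, 0.154 and 0.39 with shMBD6. It fell with shMBD6 in WT (-1.54 log2 units, SE 0.321, adjusted p = 0.000638 in edgeR) and in TET2 KO (-1.43 log2 units, SE 0.372, adjusted p = 0.0049 in edgeR), the former moving to -0.40 with its call lost under spike-in scaling (adjusted p = 0.24 in edgeR), and was lower in KO with shControl (edgeR adjusted p = 0.00453). Its lower level in KO with shMBD6 (edgeR adjusted p = 0.0293) was a call COL25A1 lost without WT shMBD6 replicate 1 or 3 or KO shMBD6 replicate 2 (adjusted p 0.0521 to 0.138).

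COL26A1 (ENSG00000160963.13, hg38 chr7:101362875-101559024, plus strand) read 0.797, 1.03 and 1.25 CPM with WT shControl and 1.58, 1.76 and 2.09 with WT shMBD6. In TET2 KO, COL26A1 read 0.471, 0.533 and 0.287 CPM with shControl and 2.26, 3.66 and 2.45 with shMBD6. KO shControl was the lowest group and KO shMBD6 the highest. It rose with shMBD6 in WT (0.81 log2 units, SE 0.263, adjusted p = 0.0178 in edgeR) and more in TET2 KO (2.67 log2 units, SE 0.286, adjusted p = 3.31e-07 in edgeR), and the effects differed (by 1.86 log2 units, SE 0.395, adjusted p = 0.00176 in edgeR). COL26A1 lost the call in WT without WT shControl replicate 1 or WT shMBD6 replicate 3 (adjusted p 0.0713 to 0.0722). With shControl it was lower in KO (edgeR adjusted p = 0.00296). With shMBD6 it was higher in KO (0.62, edgeR adjusted p = 0.0407), which moved to 0.38 without KO shMBD6 replicate 2, and COL26A1 lost that call without WT shMBD6 replicate 1 or 2, KO shControl replicate 1 or KO shMBD6 replicate 2 (adjusted p 0.0508 to 0.270).  COL28A1 was higher in KO with shControl (0.574 ± 0.115 against 0.239 ± 0.129 CPM, 1.25 log2 units, SE 0.449, adjusted p = 0.0294 in edgeR), and COL28A1 lost this call without WT shControl replicate 2 or 3 or KO shControl replicate 1 (adjusted p 0.0665 to 0.127). Its libraries held 10, 10 and 3 counts with WT shControl and 18, 18 and 13 with WT shMBD6, and 24, 18 and 16 with KO shControl and 18, 17 and 22 with KO shMBD6. COL26A1, COL28A1, LAMB1 and COL1A2 are the detected members on chromosome 7. In KO against WT with shControl, edgeR called 22.2% of all genes higher and 20.7% lower. Of the tested genes within 500 kb, 15 of 19 were higher and 1 lower around COL26A1, 8 of 13 higher and 1 lower around LAMB1, 3 of 6 higher and 0 lower around COL1A2, and 0 of 8 in either direction around COL28A1. COL26A1 itself was lower in that comparison and the other members were higher.

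Set against each other, the shMBD6 effects in the 2 genotypes sorted the detected genes into groups. How often all genes take these patterns was not counted, so the numbers describe this list only. A set of 10 genes rose in both: COL14A1, COL1A1, COL26A1, COL5A1, COL6A1, COL6A2, COL6A3, COL6A6, LAMC1 and SPARC. COL25A1, COL4A2, COL4A5 and THBS3 fell in both. COL6A5 and HSPG2 rose in WT and fell in TET2 KO. Of those called in WT alone, COL18A1, COL23A1, COL5A2, FN1 and LAMB1 rose and COL21A1 and COL9A2 fell, and of those called in KO alone, COL24A1, FBLN2, LAMB2 and LAMB3 rose and COL15A1, COL1A2, COL3A1 and LAMA5 fell. A call in 1 genotype alone is no test of the difference, and of these 15 genes the interaction was called for 10: COL15A1, COL18A1, COL1A2, COL23A1, COL3A1, COL9A2, FN1, LAMA5, LAMB1 and LAMB3. The 15 were picked by calls in the same libraries, so this count is no separate evidence. Another 13 were called in neither genotype, and 9 of the 44 in none of the 5 comparisons.

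**Figure D4:**
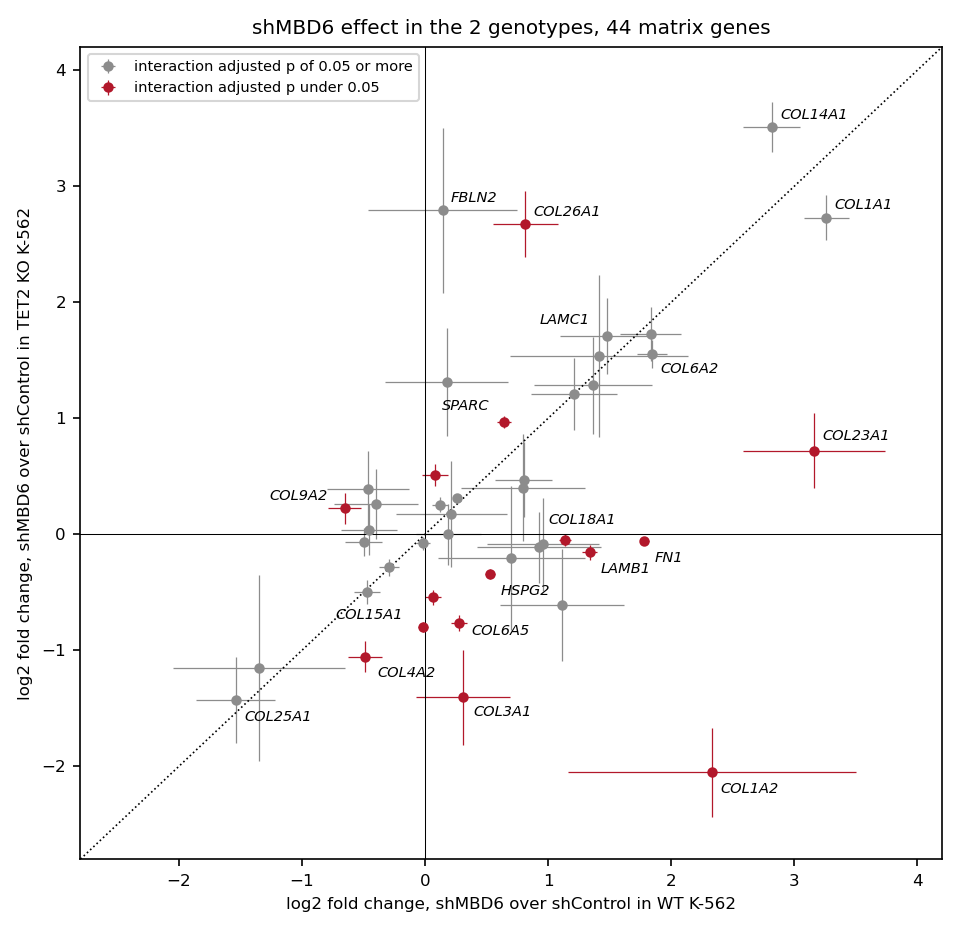
log2 fold change of shMBD6 over shControl in WT (horizontal) and in TET2 KO (vertical) for the 44 detected genes, with SE bars, the dotted line marking equal effects and red points the 15 genes with an interaction adjusted p under 0.05. Of the red points, 11 lie below the line, with COL1A2 (-4.39), COL23A1 (-2.44) and FN1 (-1.84) farthest below, and COL26A1 (1.86), COL9A2, LAMB3 and SPARC lie above it.

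**Figure D5:**
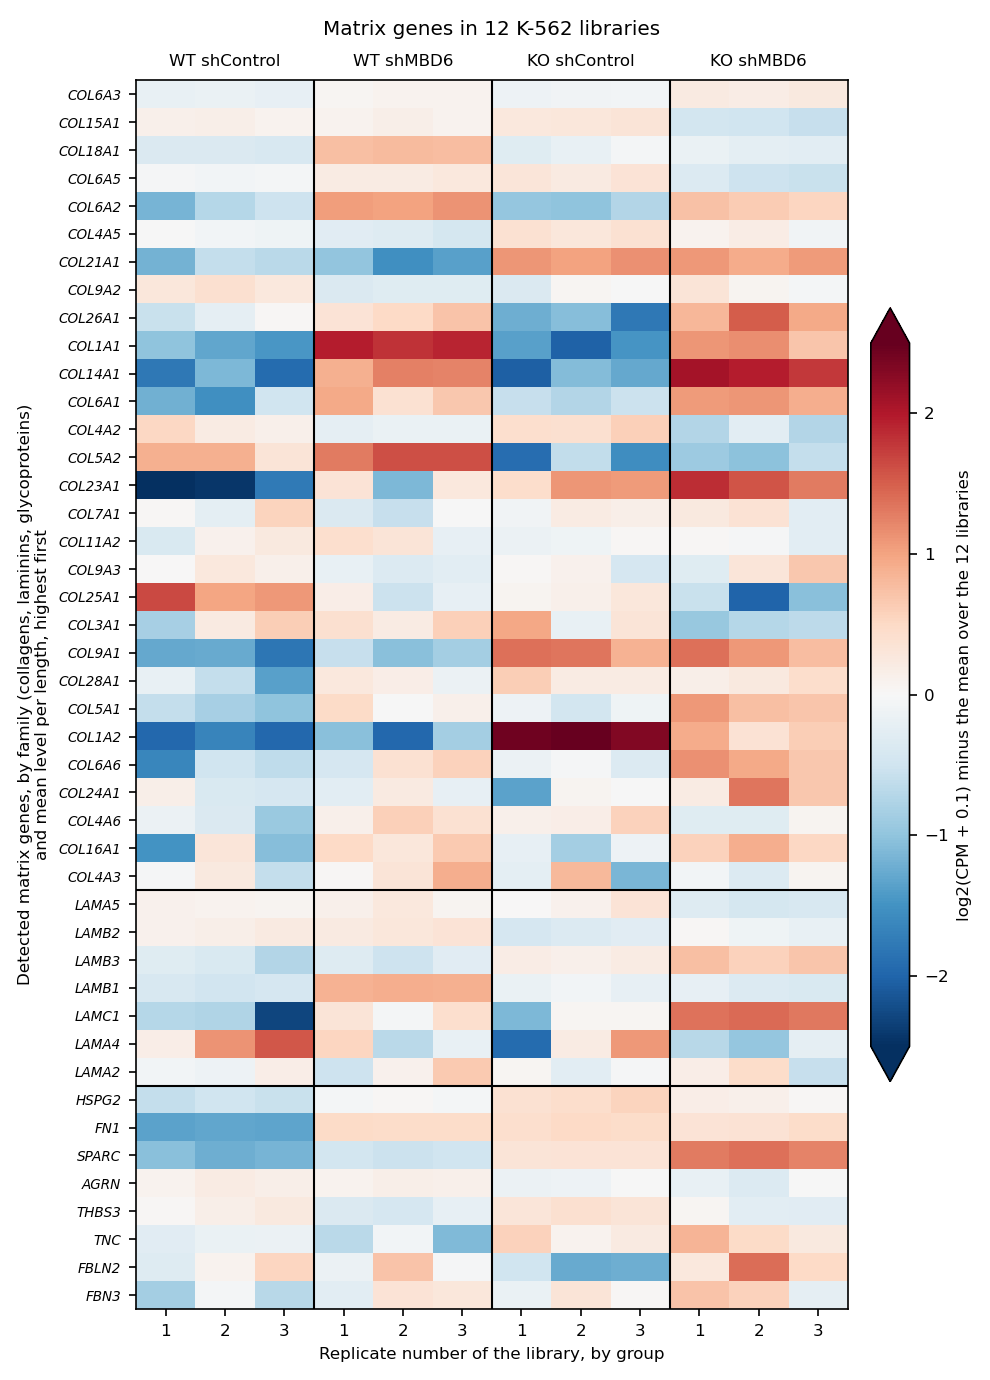
Row-centred log2(CPM + 0.1) of the 44 detected genes in the 12 libraries, with families divided by horizontal lines and groups by vertical ones. Libraries of a group share colours for FN1, SPARC, COL21A1 and COL1A1, while rows such as LAMA4, COL24A1 and COL4A3 vary within groups.

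Genes that make, cut, bind and signal through the matrix were counted from 5 further lists, beside the shares of all genes. Of all genes, shMBD6 raised 20.4% and lowered 19.2% in WT, and raised 18.5% and lowered 16.3% in TET2 KO. Of 36 genes for collagen synthesis and crosslinking 28 were tested, of which shMBD6 raised 15 and lowered 5 in WT (71.4% called, against 39.6% of all genes) and raised 12 and lowered 6 in TET2 KO (64.3% against 34.8%). FKBP10, a procollagen chaperone, rose from 1.08 ± 0.300 to 3.36 ± 0.531 CPM in WT (1.65 log2 units, SE 0.207, adjusted p = 2.07e-06 in edgeR) and from 1.72 ± 0.0153 to 4.24 ± 0.502 in KO (1.30 log2 units, SE 0.190, adjusted p = 1.86e-05 in edgeR). P3H3, a prolyl hydroxylase relative, and PCOLCE, which helps cut procollagen, rose in WT from 6.75 ± 0.650 to 16.7 ± 1.13 and from 5.23 ± 0.556 to 12.9 ± 0.553 CPM (1.30 log2 units, SE 0.107, adjusted p = 6.89e-09 in edgeR for PCOLCE). SPARCL1, which is a relative of SPARC and no enzyme, was on this list and rose with shMBD6 in KO from 0.741 ± 0.281 to 5.40 ± 0.248 CPM (2.87 log2 units, SE 0.342, adjusted p = 1.32e-06 in edgeR). In TET2 KO against WT with shControl, 13 of the 28 were higher and 8 lower (75% called, against 42.8%). In the interaction 1 was positive and 11 negative (42.9% called, against 21.3%). Of 25 tested proteases and inhibitors, shMBD6 raised 17 and lowered none in WT (68% called, against 39.6% of all genes). In KO it raised 12 and lowered 2 (56% against 34.8%). TIMP3, an inhibitor of metalloproteases, rose from 2.12 ± 0.363 to 9.05 ± 1.22 CPM in WT (2.08 log2 units, SE 0.156, adjusted p = 1.64e-09 in edgeR). The direction counts are relative to the median gene, as above.

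Of 29 tested matrix receptors, shMBD6 raised 12 and lowered 6 in WT (62.1% called, against 39.6% of all genes). In KO it raised 7 and lowered 5 (41.4% against 34.8%). With shControl, 8 were higher and 12 lower in TET2 KO than in WT (69% against 42.8%). ITGA4, an alpha chain of fibronectin-binding integrins, stood at 0.299 ± 0.0477 CPM with WT shControl, 1.75 ± 0.439 with WT shMBD6, 9.42 ± 1.69 with KO shControl and 2.06 ± 0.314 with KO shMBD6 (4.95 log2 units, SE 0.248, adjusted p = 9.9e-13 in edgeR for KO with shControl). CD44, the hyaluronan receptor, rose with shMBD6 in WT from 1.88 ± 0.522 to 11.2 ± 0.466 CPM (2.58 log2 units, SE 0.156, adjusted p = 8.11e-11 in edgeR) and in KO from 2.12 ± 0.329 to 4.96 ± 0.115 (1.22 log2 units, SE 0.158, adjusted p = 3.85e-06 in edgeR). SDC1 and GP6, a syndecan and the platelet collagen receptor, were lower in KO with shControl, at 0.0987 ± 0.0122 against 0.778 ± 0.188 and 0.208 ± 0.0506 against 1.61 ± 0.331 CPM (-2.94 log2 units, SE 0.397, adjusted p = 3.42e-06 in edgeR for GP6). TGF-beta signalling is a pathway that drives matrix genes in fibroblasts. Of its 22 tested genes, shMBD6 raised 12 and lowered 1 in WT (59.1% called, against 39.6% of all genes). In KO it raised 11 and lowered 3 (63.6% against 34.8%). With shControl, 7 were higher and 5 lower in TET2 KO than in WT (54.5% against 42.8%). TGFBR2 was at 0.244 ± 0.208 CPM with WT shControl and 14.7 ± 1.46 with KO shControl (5.76 log2 units, SE 0.308, adjusted p = 2.85e-12 in edgeR), and ACVRL1 rose with shMBD6 in KO from 1.57 ± 0.0644 to 11.3 ± 0.387 (2.84 log2 units, SE 0.155, adjusted p = 1.56e-11 in edgeR). Of 23 tested matrix proteins outside the rule, shMBD6 raised 5 and lowered 4 in WT and raised 5 and lowered 3 in KO (39.1% and 34.8% called), near the shares of all genes. THBS1, the thrombospondin of platelets, reached 2.02 ± 0.368 CPM with KO shMBD6 from 0.509 ± 0.138 with KO shControl (1.97 log2 units, SE 0.344, adjusted p = 0.000135 in edgeR), and VCAN, a large proteoglycan, rose in WT from 0.280 ± 0.136 to 1.45 ± 0.298 CPM (2.36 log2 units, SE 0.402, adjusted p = 8.18e-05 in edgeR). ELN, the elastin gene, was rare, at 0.0399 ± 0.0359 CPM with WT shControl, 0.330 ± 0.114 with WT shMBD6, 0.504 ± 0.176 with KO shControl and 0.104 ± 0.0688 with KO shMBD6 (interaction -5.13 log2 units, SE 1.000, adjusted p = 0.000807 in edgeR).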

How the data were processed

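Human K-562 polyA RNA (SMARTer stranded kit) was sequenced in 12 libraries. Per the labels and the study's methods, the authors trimmed reads with Trimmomatic 0.39, aligned them with HISAT2 2.2.1 to hg38 with ERCC sequences, and took gene counts from HTSeq 0.12.4 on GENCODE 29, so the deposited values are raw read counts. The strand setting of the counting is not given in the sources used here. Rows that name no gene (no feature 10.4 to 13.8%, ambiguous 4.01 to 4.33%, not unique 6.04 to 6.43% of reads) and ERCC rows were left out of library sizes. Symbols, coordinates and exon lengths came from GENCODE 44 by gene ID (58207 of 58721 rows matched).

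edgeR 4.0.16 in R 4.3.3 (filterByExpr, TMM, quasi-likelihood test, two-sided) was fitted to all 12 libraries without a replicate block, with 8 residual degrees of freedom and Benjamini-Hochberg adjustment over 17936 genes, and checked on simulated data. The study tested with DESeq2 and, per its methods, put a factor from the ERCC reads into the size factors. The DESeq2 1.42.0 fit here used no spike-ins, so it does not repeat the study's scaling. It was an alternative, as were RLE and ERCC scaling in edgeR, no filter and fits of the compared groups alone. A replicate block and fits without 1 library were alternatives too. CPM are counts scaled to the TMM effective library size. Members called with an absolute log2 fold change of at least 1 in any comparison (at most the 30 largest) and the 10 highest by level per length are named with full values, and genes of the related lists by the same fold. THBS3, COL4A5 and COL9A2, outside that rule, were added after their values had been seen. The members and lists were chosen with earlier results of these data known. Libraries of a group differed by more than sampling noise (mean chi-square per gene 3.15 to 12.1), most so KO shMBD6 replicate 3. Mouse libraries were not used here, and a few items are not reported here.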

Additional observations from a re-analysis of the deposited data

Results flagged for a closer look

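The effect of shMBD6 differed between TET2 KO and WT K-562 for 15 of the 44 detected genes, by the interaction term of the edgeR fit (adjusted p under 0.05 over all genes, against 21.3% of all genes). Given as the log2 effect in KO minus that in WT, the difference was negative for COL1A2 (-4.39), COL23A1 (-2.44), FN1 (-1.84), COL3A1 (-1.72), LAMB1 (-1.49), COL18A1 (-1.19), COL6A5 (-1.04), HSPG2 (-0.87), COL15A1 (-0.78), LAMA5 (-0.61) and COL4A2 (-0.57). It was positive for SPARC (0.32), LAMB3 (0.43), COL9A2 (0.87) and COL26A1 (1.86). The negative ones arose in different ways: FN1, LAMB1, COL18A1 and COL23A1 rose with shMBD6 in WT and were not called in KO, COL15A1, LAMA5, COL3A1 and COL1A2 fell in KO and were not called in WT, COL6A5 and HSPG2 rose in WT and fell in KO, and COL4A2 fell in both. The values for COL1A2, COL23A1, COL3A1, COL4A2 and LAMB3 lost their call when 1 library was left out, and those for COL9A2, SPARC and LAMB3 turned under spike-in scaling.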

How the results depend on the processing

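Of 111 calls of a member in a comparison, RLE size factors kept every call, and DESeq2 without spike-ins kept 110. The exception was COL26A1 in KO against WT with shMBD6 (DESeq2 adjusted p = 0.0537). Without the filter on low counts 107 stayed called, and with the compared groups alone 91 of 93. Leaving out 1 library kept 89 and ended 22 calls, with no change of direction, and the counts ranged from 20 to 23 (KO against WT with shControl), 24 to 28 (with shMBD6), 21 to 25 (shMBD6 in WT), 21 to 26 (shMBD6 in KO) and 11 to 15 (interaction). ERCC scaling moved the counts most, to 39, 30, 39, 27 and 28 in the order KO against WT with shControl and with shMBD6, shMBD6 in WT and in KO, and interaction, because it moves the median of all genes. Under it the log2 values turned to 0.84 (COL9A2), 0.0106 (COL26A1), 0.75 (LAMB2), 1.02 (AGRN) and 0.0864 (COL25A1) for KO against WT with shControl, 0.0016 (AGRN) with shMBD6, 0.49 (COL9A2), 0.64 (COL21A1), 0.65 (COL4A2), 0.67 (THBS3) and 0.85 (COL4A5) for shMBD6 in WT, and -0.0849 (COL9A2), -0.63 (SPARC) and -0.53 (LAMB3) for the interaction. It kept 90 calls and ended 7 without a turn, at adjusted p of 0.381 (FBLN2, KO against WT with shControl), 0.653 (COL4A2), 0.344 (COL6A2), 0.397 (LAMB2) and 0.0916 (COL25A1, all 4 KO against WT with shMBD6), 0.24 (COL25A1, shMBD6 in WT) and 0.341 (COL4A5, shMBD6 in KO). Calling a gene detected at 1 count in any library gave 73 members in place of 44, and at least 10 counts in 3 libraries gave 44.

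No pairing by replicate number was seen: deviations of same-numbered libraries correlated at -0.039 to 0.014. Taken over all genes tested, such values cannot exclude a shared culture or preparation step. A replicate block gave 21, 27, 23, 24 and 14 called members in the order above, and ended the calls of FBLN2 in KO against WT with shControl (adjusted p = 0.0604) and of COL4A2 in the interaction (0.0545). Depth limits the rare chains: a gene at 0 in a library may still have up to 3 counts. These limits cover counting error only, and each group is 1 line with 1 hairpin. With the canonical transcript length, chosen after seeing the data, levels per length moved by more than the SD between replicates for the 10 highest genes.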
